A study of Mus musculus with 8 samples.

Results

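The 31 genes described here are the glucose transporter Slc2a1, the enzymes that carry glucose to pyruvate, 5 genes that decide whether pyruvate becomes lactate or enters the mitochondrion, and 10 genes known to be induced at low oxygen. They were taken by symbol from a list of glycolysis and hypoxia genes, which was chosen with earlier results of these data known. All 31 were found among the 20144 genes that could be named on the array. All 31 gave a signal well above background somewhere in the series, and 28 did so on all 8 arrays. Pdk1, Egln3 and Car9 were not well above background in adult stellate cells and have only an upper bound there.

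Gene expression was measured in mouse cells with 1 microarray per group. Liver cells positive for p75NTR and negative for CD45 (a leukocyte antigen) and Ter119 (a red cell antigen) were sorted from embryos of 4 ages (E11.5 and E13.5, then E14.5, then E17.5) and from newborns on day 1 (P1), which gave 5 arrays. The 3 others held vitamin A-positive cells of adult liver, labelled as hepatic stellate cells (adult HSC), cultured embryonic skin fibroblasts (MEF), and purified mesenchymal stem cells of adult bone marrow (MSC). No genotype, strain or treatment is named for any group, the sources used here do not give whether animals were pooled or whether the MSC were cultured, and since p75NTR is a marker and not a lineage label, the 5 sorts need not hold the same cells. With 1 array a group, no spread between animals can be given.

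Glycolysis splits glucose into pyruvate and yields ATP without oxygen. Lactate dehydrogenase then turns pyruvate into lactate, which monocarboxylate transporters carry out of the cell. When oxygen is short, the prolyl hydroxylases of the Egln family stop marking the alpha subunits of hypoxia-inducible factor (HIF) for destruction, and HIF binds short DNA elements beside many glycolytic genes and genes such as Vegfa and Bnip3. Stellate cells are the pericytes of the liver sinusoid and store vitamin A.

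HIF binds elements with the core ACGTG, so the promoters of the genes were searched for these letters on both strands, where the opposite strand reads CACGT. RefSeq promoter windows of build GRCm38.p6 were held for 30 of the 31 genes; that of Ndrg1 was not used here. In the 250 bases before an annotated start, ACGTG was present for 18 of 30 members (60.0%), against 18.5% of 27025 genes. The related core GCGTG was present for 20 members (66.7%), against 30.9% of all genes, and the palindrome CACGTG, which contains ACGTG on both strands, for 4 (13.3%), against 6.86%. A gene counted if any of its windows held the letters, and the 30 members had 43 windows, against 32851 for the 27025 genes. By window, ACGTG was present in 20 of 43, against 16.6%, GCGTG in 24, against 28.2%, and CACGTG in 4, against 6.02%. Member windows also held more G and C, with a median of 60.4% against 52.4%, and the part of base composition in these shares was not tested. A match is a description of the letters and not a bound site. Windows of 150 bases that end just before the start follow for 6 genes, 5' to 3' on the strand of the gene, with each ACGTG or CACGT in capitals. They were chosen to show the motif in a transporter of glucose (Slc2a1), 2 enzymes of lower glycolysis (Pgk1, Pgam1), the enzyme and the exporter of lactate (Ldha, Slc16a3) and a hypoxia-induced gene (Bnip3).
Slc2a1: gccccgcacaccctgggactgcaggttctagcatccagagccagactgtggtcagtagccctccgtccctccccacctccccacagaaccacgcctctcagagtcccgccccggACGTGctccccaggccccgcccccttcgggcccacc
Pgk1: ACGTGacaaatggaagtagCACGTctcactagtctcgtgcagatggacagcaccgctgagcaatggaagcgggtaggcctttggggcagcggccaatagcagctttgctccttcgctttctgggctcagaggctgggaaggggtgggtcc
Pgam1: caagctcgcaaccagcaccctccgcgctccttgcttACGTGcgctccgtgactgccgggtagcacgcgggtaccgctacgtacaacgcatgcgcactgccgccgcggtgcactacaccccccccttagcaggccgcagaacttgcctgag
Ldha: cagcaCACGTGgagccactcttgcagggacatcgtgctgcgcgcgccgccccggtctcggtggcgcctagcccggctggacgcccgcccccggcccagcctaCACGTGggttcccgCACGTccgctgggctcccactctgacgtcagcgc
Slc16a3: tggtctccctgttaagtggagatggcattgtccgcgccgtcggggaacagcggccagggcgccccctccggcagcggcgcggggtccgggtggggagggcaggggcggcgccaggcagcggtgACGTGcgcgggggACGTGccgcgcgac
Bnip3: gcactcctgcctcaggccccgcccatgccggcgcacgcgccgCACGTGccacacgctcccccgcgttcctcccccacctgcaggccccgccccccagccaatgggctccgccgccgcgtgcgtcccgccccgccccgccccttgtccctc
The Ldha window (chr7:46845654-46845803, plus strand, 1 of 2 annotated starts) holds 3 separate runs of capitals, the first 145 and the last 34 bases before the start. Both runs of the Pgk1 window (chrX:106186950-106187099, plus strand) lie at its far end, at 150 and 131 bases before the start. The Slc16a3 window (chr11:120948917-120949066, plus strand) holds its pair close to the start, at 27 and 14 bases. One run each is found in Pgam1 (chr19:41911721-41911870, plus strand), in Slc2a1 (chr4:119108595-119108744, plus strand) and, as the palindrome, in Bnip3 (chr7:138909507-138909656, minus strand).

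Levels below are the log2 processed signal minus the log2 75th percentile of that array, so 0 is that percentile, and a difference of 1 is 2-fold. A level is read only against the same probe on other arrays. The members' brightest levels lay between 6.22 and 8.18 on an array, under the level of saturation (10.9 to 11.6). The scanner software put the error of a member's spot at a median of 10% of its signal. Replicate spots of a probe had a median coefficient of variation of 15% to 17.1% on an array, and this is the technical error only. The E11.5 array stood apart in its spike-in controls, whose slope was 0.849 against 0.922 to 0.933 on the others. The 4 embryonic arrays lay on 1 slide, and P1, adult HSC, MEF and MSC on another.

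**Figure D1:**
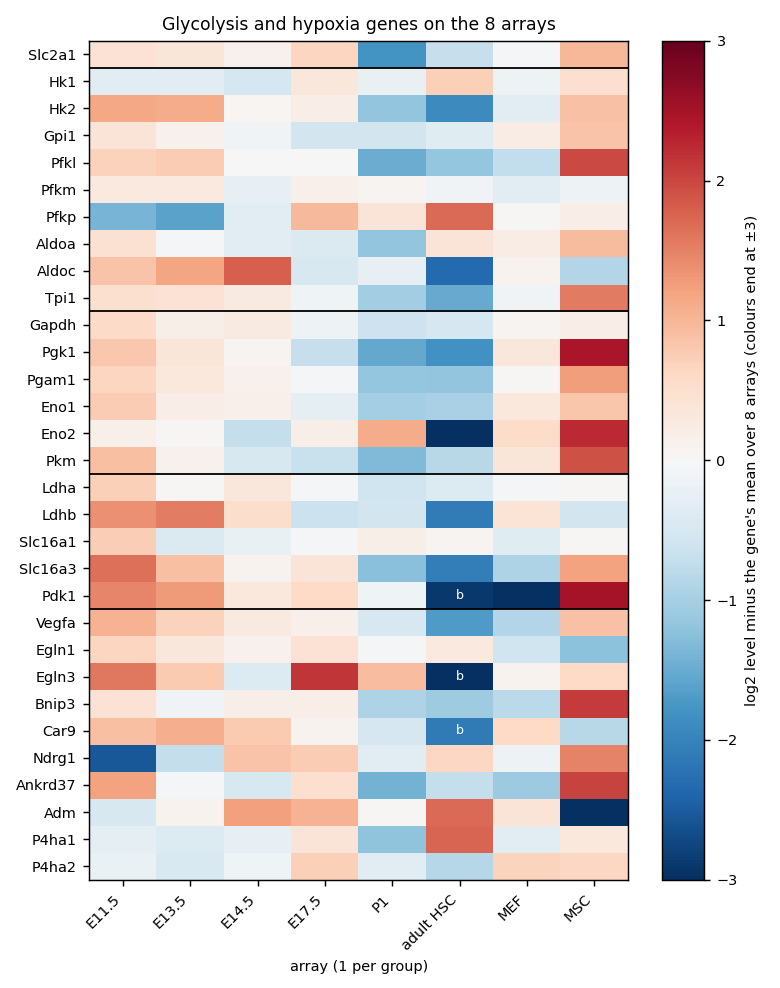
Each row is a gene and each column an array; colour is the log2 level minus the mean of that gene over the 8 arrays, and lines separate glucose uptake, upper glycolysis, lower glycolysis, the fate of pyruvate and lactate, and hypoxia-induced genes. Of the 31 genes, 14 were highest on the MSC array, while 13 were lowest in adult HSC and 10 at P1; b marks a value not well above background.

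The MSC array held the highest level for 14 of the 31 genes, where it did so for 24.6% of all genes measured. The adult HSC array held the lowest level for 13, against 23.1%, and P1 for 10, against 9.66%. P1 and MEF held the highest level for 0 members, against 10.9% and 10.8% of all genes. Within the 5 stages alone, E11.5 was the highest for 18 members, against 30.5% of all genes, and P1 the lowest for 20, against 27.6%.

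Slc2a1, which encodes the glucose transporter of most fetal and growing cells, had levels of 2.85, 2.79, 2.55 and 3.07 at the 4 embryonic stages, 0.63 at P1, 1.74 in adult HSC, 2.36 in MEF and 3.42 in MSC. The embryonic values lay close together, and P1 was 5.42-fold below E17.5.

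The first committed steps showed a different order for each isoform. Hexokinase 2 (Hk2), the inducible enzyme that traps glucose in the cell, was at 1.39 and 1.33 at E11.5 and E13.5, 0.29 and 0.41 at E14.5 and E17.5, -0.96 at P1, -1.68 in adult HSC, -0.13 in MEF and 1.11 in MSC. Hk1, the constitutive hexokinase, was at 2.57, 2.60, 2.38, 3.26 and 2.70 over the 5 stages, 3.63 in adult HSC, 2.75 in MEF and 3.42 in MSC. Hk2 was thus lowest and Hk1 highest in adult HSC, each against its own levels on the other arrays.

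Phosphofructokinase, which commits the sugar to glycolysis, showed the same kind of split. The liver isoform Pfkl stood at 2.38, 2.43, 1.67, 1.67 and 0.18 over the stages, 0.51 in adult HSC, 0.94 in MEF and 3.66 in MSC. The platelet isoform Pfkp was at -2.98, -3.20, -1.90, -0.62 and -1.21 over the stages, 0.11 in adult HSC, -1.55 in MEF and -1.40 in MSC. Pfkm, the muscle isoform, varied least of the members, by 0.62 over the 8 arrays, between 1.32 and 1.94. The 2 Pfkp probes disagree: the dimmer one gave a difference of 0.24 from E11.5 to E17.5, against 2.36 for the probe taken.

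Aldolase A (Aldoa), which cleaves the sugar, was at 7.69, 7.17, 6.92, 6.79 and 6.06 over the stages, 7.62 in adult HSC, 7.45 in MEF and 8.18 in MSC. Aldoc, the isoform known from brain, was highest at E14.5 (0.69), at -0.24 and 0.09 on the E11.5 and E13.5 arrays, -1.59 and -1.34 at E17.5 and P1, -3.43 in adult HSC, -1.0 in MEF and -1.99 in MSC. In adult HSC Aldoa stood above and Aldoc below its level at P1. Gpi1 (glucose-6-phosphate isomerase) ran from 4.70 at E17.5 and P1 to 6.10 in MSC, and Tpi1 (triose phosphate isomerase) from 3.51 in adult HSC to 6.58 in MSC.

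In lower glycolysis, where ATP is made, 5 of the 6 genes were lower at P1 than at E11.5. Pgk1, the first enzyme to yield ATP, was at 5.38, 4.95, 4.67, 3.88 and 3.05 over the stages, 2.77 in adult HSC, 4.93 in MEF and 7.02 in MSC. Pkm, pyruvate kinase, the last step, was at 5.69, 4.91, 4.29, 4.10 and 3.45 over the stages, 3.95 in adult HSC, 5.15 in MEF and 6.69 in MSC. Both stood lower at each later stage, and both were above all 6 liver arrays in MSC.

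Eno1, the common enolase, was at 5.98, 5.41, 5.37, 4.96 and 4.21 over the stages, 4.24 in adult HSC, 5.54 in MEF and 6.05 in MSC. Pgam1, phosphoglycerate mutase, was at 5.96, 5.63, 5.44, 5.28 and 4.15 over the stages, 4.12 in adult HSC, 5.34 in MEF and 6.57 in MSC. Gapdh, often used as a reference gene, ranged from 6.22 at P1 to 7.42 at E11.5 by its brightest probe. Eno2, the neuronal enolase, did not follow the others: it was at -0.06, -0.19, -0.92, -0.03 and 0.90 over the stages, -3.77 in adult HSC, 0.34 in MEF and 2.02 in MSC. Its lowest level was that of adult HSC.

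Pyruvate can leave the cell as lactate or enter the mitochondrion. Slc16a3, the lactate exporter of glycolytic cells, was at 4.53, 3.78, 2.98, 3.25 and 1.61 over the stages, 0.80 in adult HSC, 1.95 in MEF and 4.08 in MSC. Ldha, the lactate dehydrogenase subunit that favours lactate, was at 7.10, 6.41, 6.72, 6.34 and 5.79 over the stages, 5.97 in adult HSC, 6.34 in MEF and 6.41 in MSC. Ldhb, the subunit that favours pyruvate, was at 3.43, 3.59, 2.58, 1.40 and 1.5 over the stages, -0.05 in adult HSC, 2.45 in MEF and 1.51 in MSC. Both dehydrogenase subunits therefore stood lower at P1 than at E11.5, and the MSC array was not high for Ldhb.

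Pdk1, the kinase that keeps pyruvate out of the mitochondrion, was at -1.21, -1.41, -2.37, -2.09 and -2.81 over the stages, not well above background in adult HSC, -5.76 in MEF and -0.18 in MSC. MEF was 47.9-fold below MSC for this gene, the widest gap of any member between these arrays at these settings (log2 -5.58, and -2.63 with normexp). Slc16a1, the other lactate transporter, lay between -4.61 and -3.43 and was well above background on every array.

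The hypoxia-induced genes did not share 1 course. Vegfa, the endothelial growth factor, was at 2.87, 2.51, 2.10, 1.98 and 1.34 over the stages, 0.13 in adult HSC, 0.93 in MEF and 2.70 in MSC, so it was lower at each later stage. Ndrg1, a stress and differentiation gene, was at -1.18, 0.64, 2.21, 2.11 and 1.02 over the stages, 1.97 in adult HSC, 1.20 in MEF and 2.85 in MSC. Adm, the vasodilator peptide adrenomedullin, was at 0.66, 1.26, 2.39, 2.19 and 1.19 over the stages, 2.85 in adult HSC, 1.53 in MEF and -2.86 in MSC. Ndrg1 and Adm were thus lowest of the 5 stages at E11.5, where Vegfa was highest.

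Bnip3, which marks mitochondria for removal, was at 3.67, 3.14, 3.43, 3.45 and 2.32 over the stages, 2.18 in adult HSC, 2.43 in MEF and 5.35 in MSC. Ankrd37, a direct HIF target, was at -0.28, -1.53, -1.97, -0.99 and -2.90 over the stages, -2.21 in adult HSC, -2.58 in MEF and 0.53 in MSC. For both genes the MSC array was the highest of the 8. Egln3, an oxygen sensor that is itself induced by HIF, was at -0.86, -1.67, -2.86, -0.29 and -1.51 over the stages, -2.35 in MEF and -1.84 in MSC, and was not well above background in adult HSC. Egln1, the main oxygen sensor, ran from -4.78 in MSC to -2.90 at E11.5 and was well above background on all 8 arrays.

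P4ha1 and P4ha2 encode the catalytic subunits of the hydroxylase that stabilises collagen. P4ha1 was at -0.12, -0.26, -0.11, 0.54 and -1.07 over the stages, 1.90 in adult HSC, -0.16 in MEF and 0.46 in MSC. P4ha2 was at 2.37, 2.12, 2.44, 3.30 and 2.25 over the stages, 1.72 in adult HSC, 3.24 in MEF and 3.20 in MSC. Adult HSC was thus the highest array for P4ha1 and the lowest for P4ha2. Car9, a carbonic anhydrase of the cell surface, ran from -4.67 in MSC to -2.74 at E13.5 where measured.

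**Figure D2:**
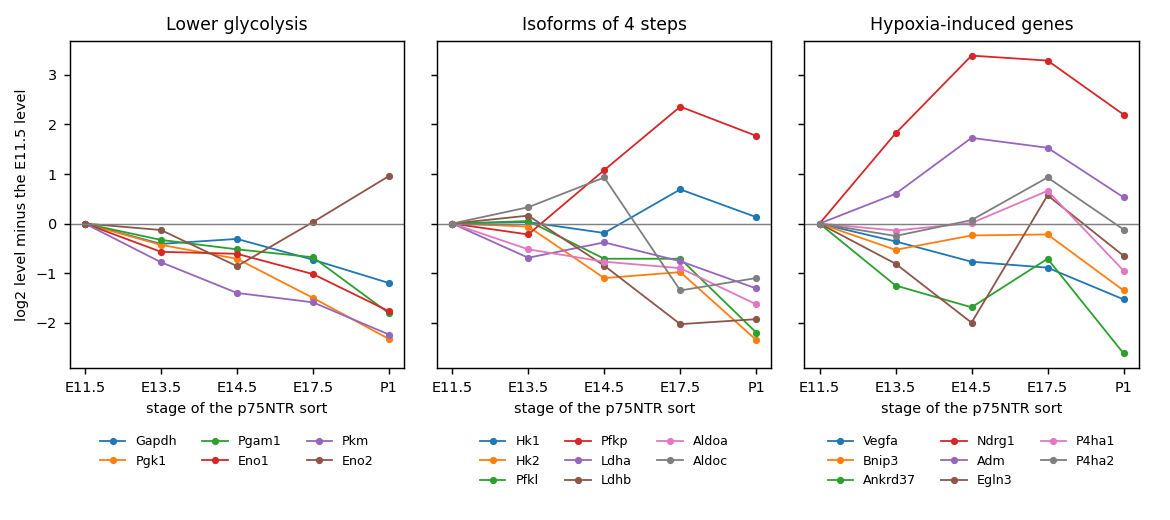
The plot gives, for the 5 stages of the p75NTR sort (1 array each), the log2 level minus the E11.5 level of the same gene, for lower glycolysis, for pairs of isoforms and for hypoxia-induced genes. At P1 Pkm was at -2.24 and Pgk1 at -2.33 from E11.5, while Eno2 was at 0.96, Pfkp at 1.77 and Ndrg1 at 2.20.

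The question of a course over development was tested with limma as a slope per stage, with the 5 stages numbered in order, fitted across 15573 genes. No gene passed a Benjamini-Hochberg adjusted p of 0.05 (the lowest adjusted p was 0.0591, and 4363 genes had an unadjusted p under 0.05), so 0 of 31 members passed. By limma's unadjusted p, 16 members had a negative slope, against 15.6% of all genes, and 1 a positive slope (Pfkp, 0.61 ± 0.17 SE per stage), against 12.4%. The slope of Pfkp was 0.01 by its other probe, 0.31 by the mean of both and 0.11 with normexp. Slopes were below 0 for 24 of the 31, where 54.7% of all genes had one below 0, and the median slope was -0.36 for the members and -0.03 for all genes. Levels were lower at each of the 4 steps for 8 members (Gpi1, Aldoa, Tpi1, Pgk1, Pgam1, Eno1, Pkm, Vegfa), against 7.94% of the genes above background at all stages. For Gpi1 the last step was 0.00 at the digits printed, and its other probes were higher at P1 (by 0.03 and 0.15). They were higher at each step for 0 members, against 3.24%.

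The steepest of the negative slopes with an unadjusted p under 0.05 were those of Slc16a3 (-0.64 ± 0.13 SE per stage, limma adjusted p = 0.0805) and Ldhb (-0.60 ± 0.13, limma adjusted p = 0.0838). The lowest adjusted p among the members was that of Pkm (-0.53 ± 0.07, limma adjusted p = 0.0648), followed by Pgk1 (-0.57 ± 0.08, limma adjusted p = 0.0661) and Vegfa (-0.36 ± 0.06, limma adjusted p = 0.0751). When the fit was run only on genes above background on every stage array, 291 of 12717 genes passed with a negative slope, 5 members among them: Pkm (limma adjusted p = 0.0392), Pgk1 (0.0396), Vegfa (0.0470), Eno1 (0.0494) and Aldoa (0.0497). By role, the negative slopes with an unadjusted p under 0.05 were 5 of 9 upper glycolytic genes, 5 of 6 lower glycolytic genes, 4 of 5 genes of lactate and pyruvate (Ldha, Ldhb, Slc16a3, Pdk1) and 2 of 10 hypoxia-induced genes (Vegfa, Car9). Without the P1 array, which alone of the stages lay on the second slide, 12 members had a limma unadjusted p under 0.05, against 23% of all genes, and without the E11.5 array 13, against 19.8%. With normexp background correction 0 members had one, against 4.39%, and the median slope was -0.17, against -0.09 for all genes.

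From E11.5 to E17.5, both on 1 slide, 6 members were 2-fold or more lower, against 14.2% of 14476 genes, and 3 were 2-fold or more higher, against 14%. These pairs of arrays have no replicates and so no test. The lower genes were Ldhb (4.09-fold), Pkm (3.01-fold), Pgk1 (2.84-fold), Aldoc (2.56-fold), Slc16a3 (2.43-fold) and Eno1 (2.02-fold), none of them from the hypoxia-induced group. The higher ones were Ndrg1 (9.75-fold), Pfkp (5.12-fold) and Adm (2.90-fold). The median difference of the members was -0.71, against -0.15 for all genes. Against the E13.5 array in place of E11.5, 4 members were higher and 3 lower, with a median of -0.32, where 11.2% and 9.52% of all genes were. By these counts, the shares of members lay near those of all genes against either array. With normexp Aldoc (-0.92) and Eno1 (-0.89) were under 2-fold, and Pfkp was at 1.13. Eno1 was under 2-fold also with median (-0.86) and quantile (-0.87) normalization.

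**Figure D3:**
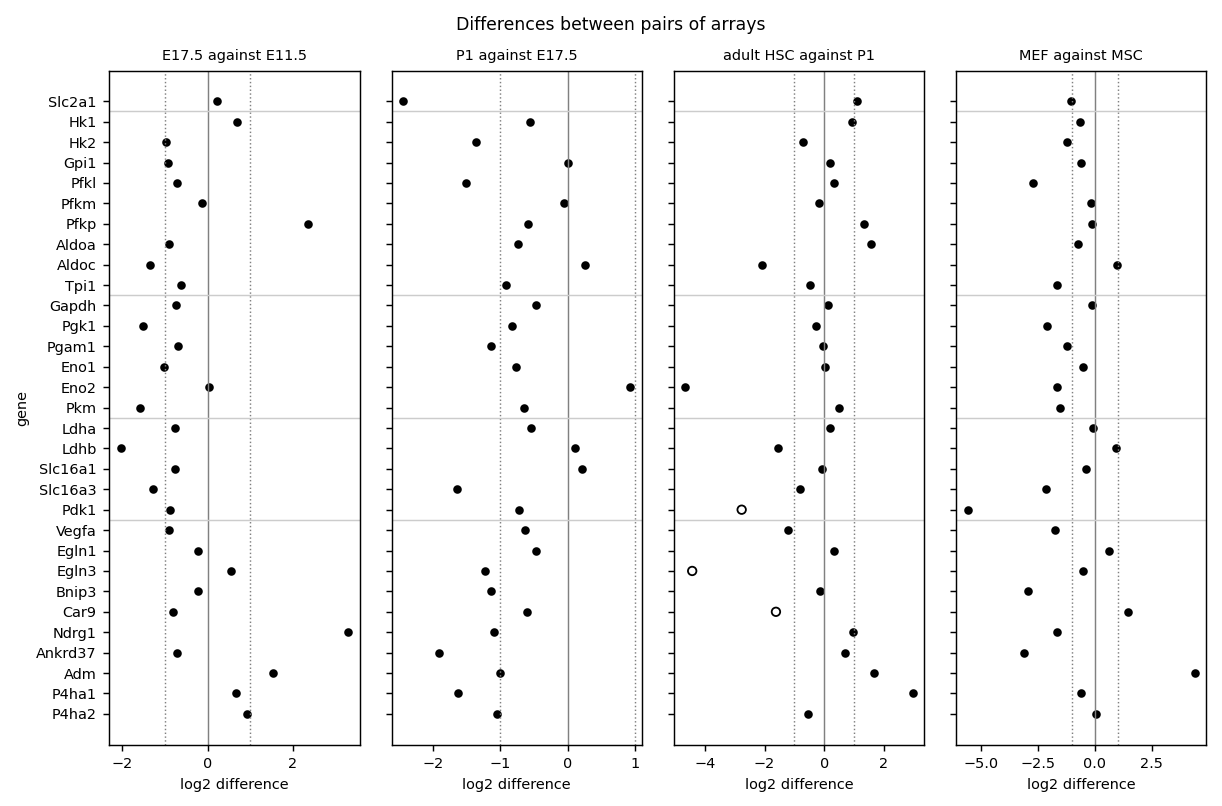
Each point is the log2 difference of a gene between 2 arrays, dotted lines mark 2-fold, and open circles are bounds where the adult HSC array was not well above background. In P1 against E17.5, 27 of 31 points lie below 0, and in MEF against MSC 25.

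Between E17.5 and P1, 12 members were 2-fold or more lower after birth, against 4.22% of 14840 genes, and 0 were higher, against 10.4%. Differences were below 0 for 27 of the 31, where 49.4% of all genes were below 0, and the median was -0.73, against 0.01. The hypoxia-induced genes made up 7 of the 12: Ankrd37 (3.77-fold lower), P4ha1 (3.07-fold), Egln3 (2.33-fold), Bnip3 (2.19-fold), Ndrg1 (2.12-fold), P4ha2 (2.07-fold) and Adm (2.01-fold). The others were Slc2a1 (5.42-fold), Slc16a3 (3.11-fold), Pfkl (2.82-fold), Hk2 (2.57-fold) and Pgam1 (2.18-fold). Only Aldoc, Ldhb, Slc16a1 and Eno2 were above 0, by at most 0.93. With normexp 9 members were 2-fold or more lower. Egln3 (-0.93) and Adm (-0.83) were among those under 2-fold, and Ankrd37 was at -1.10. With quantile normalization 11 were lower and 1 higher, and Pgam1 (-0.96), P4ha2 (-0.96) and Adm (-0.95) were under 2-fold. With median normalization 17 were lower. The arrays lay on different slides, so slide and stage cannot be told apart here. Against the other embryonic arrays, 14 members (E14.5), 16 (E13.5) and 19 (E11.5) were 2-fold or more lower at P1, and 2 were higher each time, where 10.7%, 11.2% and 14.6% of all genes were lower and 14.7%, 16.6% and 16.6% higher. These comparisons share the P1 array.

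Between P1 and adult HSC the shares of members that differed lay near those of all genes. Of the 31, 5 were 2-fold or more higher in adult HSC, against 13.7% of 14981 genes, and 7 were lower, against 21.8%; the median of the members was -0.03 and that of all genes -0.06. P4ha1 was 7.84-fold higher, Adm 3.16-fold, Aldoa 2.96-fold, Pfkp 2.51-fold and Slc2a1 2.15-fold. Eno2 was 25.4-fold lower, Aldoc 4.26-fold, Ldhb 2.94-fold and Vegfa 2.31-fold. Egln3 was at least 21.6-fold lower, Pdk1 at least 6.81-fold and Car9 at least 3.07-fold. These bounds set the adult HSC array at the higher of its lowest signal well above background and the probe's own signal. With normexp the differences of Pdk1 (-0.54), Car9 (-0.22), Aldoc (-0.96) and Pfkp (0.95) were under 2-fold, and those of Eno2 (-2.89) and Egln3 (-1.60) were smaller. With median normalization, which moved the median of all genes to 0.73, Vegfa (-0.42), Ldhb (-0.77) and Car9 (-0.80) were under 2-fold. The sort differed as well as the age (p75NTR against vitamin A), and their parts cannot be told apart.

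In MEF against MSC, 14 members were 2-fold or more lower in MEF, against 13% of 15227 genes, and 2 were higher, against 22.6%. Differences were below 0 for 25 of the 31, where 51.8% of all genes were, and the median was -0.67, against -0.04. Besides Pdk1, the widest gaps were those of Ankrd37 (8.66-fold lower in MEF), Bnip3 (7.58-fold), Pfkl (6.59-fold), Slc16a3 (4.38-fold) and Pgk1 (4.24-fold). Adm went the other way and was 20.9-fold higher in MEF, and Car9 was 2.70-fold higher. With normexp Car9 was at 0.38, and it was under 2-fold also with median (0.82) and quantile (0.90) normalization, as was Slc2a1 with the latter (-0.80). Cell identity and, as far as it differed, culture cannot be told apart here.

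The 6 liver arrays were also set against MEF and MSC together, to ask what sets liver mesenchyme apart. No member passed limma's adjusted p of 0.05 in either direction, against 0.846% of 16557 genes higher and 0.725% lower in liver (260 genes in all). By limma's unadjusted p, 1 member was higher, against 10.7% of all genes, and 1 lower, against 8.93%. Egln1 was 2.31-fold higher in liver cells (-3.25 ± 0.24 SD, n = 6, against -4.14 and -4.78, limma adjusted p = 0.0961), and all 6 liver arrays lay above both others. That separation held for 1 member, against 12.8% of all genes, and no member lay below both others on all liver arrays, against 10.5%. Pkm was 2.86-fold lower in liver cells (4.40 ± 0.79 SD, n = 6, against 5.15 and 6.69, limma adjusted p = 0.248), with overlap, since E11.5 at 5.69 lay above MEF. The median difference was -0.36 for the members and 0.02 for all genes. With the slide as a block, or on the second slide alone, it was -1.23, and 10 and 4 members had a limma unadjusted p under 0.05, against 22.6% and 9.01% of all genes. Without MSC the difference of Pkm was -0.75 and that of Egln1 was 0.89. The difference of Egln1 was also under 2-fold with median (0.83) and quantile (0.83) normalization and with normexp (0.96). Without MEF, 796 of 16254 genes passed as higher in liver, and 2 members did: Egln1 (limma adjusted p = 0.0451) and Adm (limma adjusted p = 0.0227).

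For 11 members the array held several probes, and for 2 of them the brightest probe gave a much smaller difference than the others. The brightest of the 7 Gapdh probes differed by -0.11 between MEF and MSC, and the dimmest by -1.48. For Ldha the brightest probe gave -0.07 and the others -1.99 and -2.03. Between liver cells and the other arrays Gapdh differed by -0.18 to -1.75 over its probes, and Ldha by 0.01, -1.64 and -1.20. Over the stages, by contrast, the slopes of the Gapdh probes all lay between -0.44 and -0.16 and those of the Ldha probes between -0.43 and -0.27. The cause of the disagreement was not tested. The counts above use the brightest probe.

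**Figure D4:**
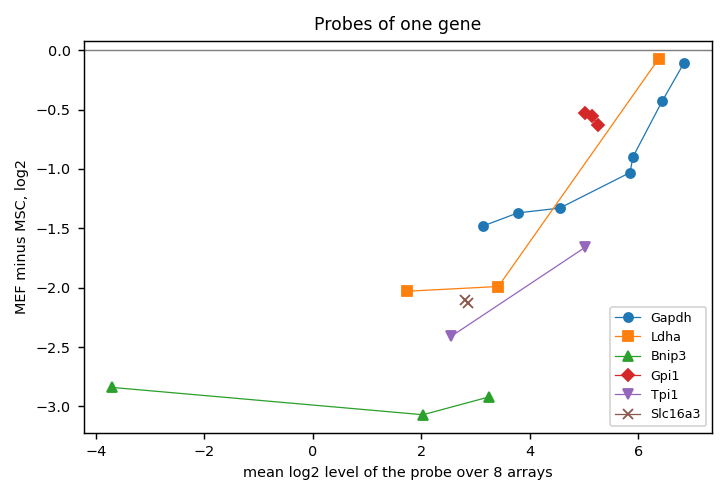
Each point is a probe of a member gene, with its mean log2 level over the 8 arrays on the horizontal axis and its log2 difference of MEF minus MSC on the vertical axis; lines join probes of a gene. The Gapdh probes run from -1.48 to -0.11 and the Ldha probes from -2.03 to -0.07, while the 3 Gpi1 probes lie between -0.63 and -0.53.

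The HIF subunits were set beside their targets. Hif1a, the alpha subunit found in most cells, was at 0.25, 0.39, -0.19, -0.01 and -0.12 over the stages, -0.48 in adult HSC, 0.92 in MEF and 1.20 in MSC. Epas1, which encodes HIF-2 alpha, was at 3.44, 3.60, 4.48, 4.98 and 4.04 over the stages, 6.67 in adult HSC, 0.74 in MEF and -3.21 in MSC. Hif3a, an alpha subunit that can restrain the others, was at 3.01, 3.53, 3.41, 4.26 and 2.56 over the stages, -1.91 in adult HSC and -0.99 in MEF, and was not well above background in MSC. All 6 liver arrays lay above both MEF and MSC for Epas1 and below both for Hif1a; neither passed limma over all genes (adjusted p = 0.0565 and 0.128). Transcript levels of these genes do not give their protein, which oxygen controls.

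Of the 9 genes of the list of HIF subunits and oxygen sensing, 0 passed limma's adjusted p in either fit. The 4 of widest range besides Hif1a were Hif3a, Epas1, Arnt2 and Cited2, which competes with HIF for its coactivator. Arnt2, a partner subunit known from neurons, was measured at -3.19 at E11.5 and -3.18 in MEF and was not well above background from E14.5 to adult HSC. Cited2 lay between 1.69 and 3.76, highest in MSC.

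Other hypoxia-induced genes gave no common direction over the stages: of 25 tested, 4 had a positive and 5 a negative slope by limma's unadjusted p, with a median of 0.00, and 0 passed the adjusted p. Here and for the lists that follow, 12.4% of all genes had a positive and 15.6% a negative slope by limma's unadjusted p. Lox, which crosslinks collagen, was at -1.91, -1.09, -0.60, 0.69 and 1.23 over the stages (slope 0.81 per stage, limma adjusted p = 0.0591), and was not well above background in adult HSC. Ppp1r3c, a glycogen scaffold, was highest at E17.5 (1.17) and Stc2, a secreted glycoprotein, in MSC (-1.70).

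Of the 23 genes of pyruvate entry and the citric acid cycle, 2 had a positive and 4 a negative slope by limma's unadjusted p, with a median of -0.08. From E17.5 to P1, 0 were 2-fold or more lower, against 4.22% of all genes, and 0 higher, against 10.4%. Pdk4, a kinase of pyruvate dehydrogenase known from fasting, was at -2.96, -2.71, -1.09, 0.00 and -0.12 over the stages, 1.23 in adult HSC, -2.31 in MEF and 1.02 in MSC. Its slope had the opposite sign to that of Pdk1 (slopes 0.84 and -0.39 per stage, limma adjusted p = 0.0722 and 0.0964). Pdk3 had a slope of -0.31 (limma adjusted p = 0.0812), Pdk2 was lowest in MSC (-2.09), and the phosphatase Pdp1 was highest in adult HSC (1.93).

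In the list of other glycolysis isoforms and regulators, 0 of 15 had a positive and 2 a negative slope by limma's unadjusted p. Slc2a4, the insulin-regulated glucose transporter, was at 0.68, 0.30, -0.36, 0.36 and 0.76 over the stages and -3.68 in adult HSC, Hk3 was measured in MEF only (-1.36), and Pgam2, the muscle mutase, was highest at E11.5 (-0.92).

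For gluconeogenesis, the reverse route, and glycerol entry, 2 of 7 genes had a positive and 1 a negative slope (Gpd2, -0.37 per stage) by limma's unadjusted p. The positive slopes were those of Fbp1 and Pck1. Fbp1, which opposes phosphofructokinase, was at 1.26 at P1 and not well above background at E11.5 (slope 1.90 per stage, limma adjusted p = 0.0648). Pck1 was at -4.89 at E11.5 and -1.86 at P1. Gpd1 was highest at E14.5 (2.42), and G6pc was above background at P1 and in adult HSC only. Of the 8 genes of the pentose phosphate pathway, 1 had a positive and 2 a negative slope by limma's unadjusted p. H6pd, which acts in the endoplasmic reticulum, was at 1.35 at E11.5, 4.47 at E17.5, 5.0 in adult HSC and 0.87 in MSC, while G6pdx (3.91), Pgls (2.70) and, after MEF at 3.25, Pgd (2.70) were high in MSC.

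**Figure D5:**
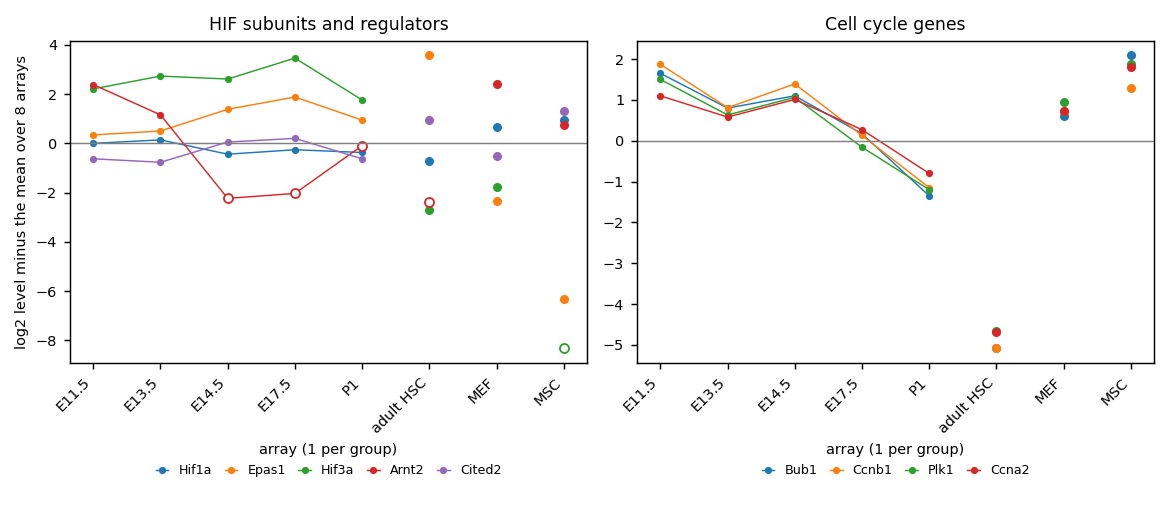
The plot gives the log2 level minus the mean of the gene over the 8 arrays for HIF subunits and regulators on the left and cell cycle genes on the right; lines join the 5 stages, single points are adult HSC, MEF and MSC, and open circles were not well above background. Epas1 is highest in adult HSC and lowest in MSC, and the 4 cell cycle genes are lowest in adult HSC.

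Cell cycle genes were set beside the members. Of 15 tested over the stages, 14 had a negative slope by limma's unadjusted p (median -0.38 per stage), against 15.6% of all genes. Levels were lower at each step for 4, against 7.94% of the genes above background at all stages, and 0 passed the adjusted p. Bub1, a mitotic checkpoint kinase, was at 1.68, 0.83, 1.13, 0.20 and -1.32 over the stages, -5.04 in adult HSC, 0.64 in MEF and 2.12 in MSC. In P1 against E17.5, 6 of 15 were 2-fold or more lower, in adult HSC against P1 14, and in MEF against MSC 10. The shares of all genes were 4.22%, 21.8% and 13%. Ccnb1, Plk1 and Ccna2 were likewise lowest in adult HSC, at -2.76, -1.61 and -2.36. The median difference of adult HSC against P1 was -2.78 for the cell cycle list, 0.20 in upper and 0.00 in lower glycolysis, where members such as Aldoc and Eno2 were lower and others such as Aldoa higher. The part of cell division in the glycolytic levels was not tested.

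Markers of other cells also differed between the stages. Fewer cells of a type and less RNA per cell cannot be told apart in these samples. The log2 summed level of 12 erythroid markers was 5.11 at E11.5, 5.50, 5.59 and 7.23 at E17.5, and 4.54 at P1. It included Hemgn, which lay between 3.50 and 4.54 on all 8 arrays, at 4.11 in MEF and 4.26 in MSC. The sum was 4.13 in MEF and 4.28 in MSC, so it is not a measure of red cell RNA alone. The median of the 12 was -0.78 at E17.5 and -3.12 at P1. Of 11, 9 were 2-fold or more lower at P1 than at E17.5, against 4.22% of all genes, among them Hba-a1 (6.92 and 3.26). That step is the one at which 12 members were lower, and the part of red cell RNA was not tested. At the same step 5 of 13 stellate markers were 2-fold or more lower, against 4.22% of all genes, and 1 higher, against 10.4%. Their median was -0.82, and their part was not tested either. The sum of 12 hepatocyte and hepatoblast markers was 7.75, 9.26, 10.63, 8.43 and 8.11 over the stages and 5.79 in adult HSC, with its peak at E14.5, where Aldoc, Ndrg1, Adm and Gpd1 were at their highest among the stages as well. The E11.5 sum was mostly that of Dlk1 (7.68), which lay between 7.39 and 7.73 over the stages and at 6.93 in MEF. The median of the 12 was -1.22 at E11.5 and 7.19 at E14.5. At E17.5, 11 of the 12 were 2-fold or more higher than at E11.5, against 14% of all genes. The sum of 12 endothelial markers was 5.40 at E11.5, 6.48 at E17.5, 4.82 at P1 and 7.97 in adult HSC, led by Plvap. By their counts 7 of the 12 were 2-fold or more lower at E17.5 than at E11.5, against 14.2% of all genes, and 2 higher, against 14% (median -1.30). The median of adult HSC against P1 was -0.21, so the sum and the counts differ. The sum of 12 leukocyte markers lay between 1.67 and 3.50 on the liver arrays, with Ptprc (CD45) not well above background on any of them. Of the 12, 5 to 8 were well above background on each liver array. Among these, Itgam (1.32 to 3.25) and Csf1r (-1.44 to 0.23) were so on all of them. Neither was particular to the liver arrays: Itgam was at 1.59 in MEF and 1.97 in MSC, and Csf1r at 3.16 and -0.28. The sum of 10 fibroblast and myofibroblast markers was 8.14 at E11.5 and 9.76 at P1. The parts of these cells were not tested.

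On all 6 liver arrays each of the 13 stellate markers lay above MEF and MSC, against 12.8% of all genes. Of the 13, 5 passed limma's adjusted p as higher, against 0.846%, among them Colec11 (adjusted p = 0.00195). Ngfr, which encodes p75NTR, was at 3.24 to 6.42 on the liver arrays, 1.37 in MEF and -5.73 in MSC. The MEF array carried leukocyte markers, with 11 of 12 well above background and Csf1r at 3.16, and the part of such cells in its levels was not tested. On the MSC array Lum, Des and Rgs5 were not well above background, Pdgfra was at 0.03 and Eng at -2.93, while Cd34 was at 5.10, Ly6a at 1.74 and Itgb1 at 3.51. Of the usual markers of such cells, Pdgfra, Eng (endoglin) and Vcam1 (1.12) were lower there than on any other array. Nt5e (-3.38), Lepr (-0.85) and Cxcl12 (4.59) were among their lower levels, while Cd34, Ly6a, Itgb1 and Prrx1 (-0.63) were among the higher ones.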

How the data were processed

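The scanner files hold intensity values that Agilent Feature Extraction 11.5.1.1 background-subtracted and detrended, per the file headers, with no scaling between arrays. The authors' deposited log2 values, used as an alternative, match these signals divided by the 75th percentile of the array, with an offset of -0.103 to -0.150; their column medians lay between -4.48 and -3.55. Levels were computed from the processed signals as described in the report. Outlier spots were dropped (1 spot, of Pfkm), and spots of a probe were averaged. Of 39429 probes, 67.4% were named by RefSeq accession (GRCm38.p6); the array design rests on another build, so no probe positions were used. The probe with the highest mean was taken per gene. Genes with a signal well above background on any array of the comparison were fitted with limma 3.58.1 (R 4.3.3) with Benjamini-Hochberg adjustment. The fits were also run on simulated data with planted effects larger than those of the members. That run cannot show how often effects of the members' sizes would be found. The arrays of a fit are different stages or cell types, so p-values measure that spread. Pairs of arrays were counted at 2-fold, with a side below background set at the higher of the lowest signal well above background and the probe's own. The files hold no mean spot signal, so the normexp alternative (offset 50) used the median one. All members were named, and of each pathway list up to 4 genes of widest range, of each marker list up to 2 with the highest level in liver cells; further markers were named after their values were seen; a few list genes chosen this way are not reported here. The members and lists were chosen with earlier results of these data known.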

Additional observations from a re-analysis of the deposited data

How the results depend on the processing

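No paired analysis was possible because each group has 1 array and the labels give no replicate numbers. Among the counts of members, none reversed. In the liver comparison, leaving out 1 array gave 0 to 2 members passing as higher (2 without MEF), and for the slope a filter on every array gave 5 passing as lower. For E17.5 against E11.5, 1 was lower at 4-fold and, chosen after seeing the data, 3 with E13.5 in place of E11.5. For P1 against E17.5, quantile normalization gave 1 higher, and 9 were lower with normexp, 17 with median normalization and 1 at 4-fold. Chosen after seeing the data, each other embryonic array gave 2 higher and E11.5 gave 19 lower. For adult HSC against P1, 11 were higher with median normalization and 1 at 4-fold, and 4 were lower with normexp, with median normalization, with the filter on every array and at 4-fold. For MEF against MSC, 1 was higher with normexp, with median normalization and at 4-fold, and 21 were lower with median normalization and 6 at 4-fold. Median normalization moved the median of all genes to 0.73 in adult HSC against P1, -0.66 in MEF against MSC, -0.33 in P1 against E17.5 and -0.35 in the liver comparison, where normexp moved it to 0.35. The members' medians moved with it, to 0.75, -1.29, -1.07 and -0.73. Except for adult HSC against P1, the members' medians stayed below those of all genes under each normalization, filter and left-out array, by little in the liver comparison without MSC (-0.07 against 0.01). Beyond the filters and arrays named, the causes were not tested.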
